A study of Mus musculus with 4 samples.

Results

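Amino acid and peptide transporters are the membrane proteins that carry single amino acids, and peptides of a few residues, into and out of cells. The genes described here are those of 8 solute carrier families, Slc1, Slc3, Slc6, Slc7, Slc15, Slc36, Slc38 and Slc43, picked by their symbols on the array. In all, 68 genes carried such a symbol, among 18191 genes named by 1 symbol on the array, and where several probe sets named a gene, the one brightest on average over the 4 arrays was used. Of these, 45 had a mean signal above the median of all probe sets, 113.9, and were kept. The 45 included 2 genes named only for lying on the opposite strand of a carrier gene (Slc7a6os and Slc6a19os), so the counts below cover the 43 carriers. The other 22 of the 65 carriers lay under the signal filter and were not tested.

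The RNA came from Paneth cells, granule-bearing defence cells of the crypt base, cut out by laser capture from frozen small intestine of male NMRI mice aged 8 weeks. Germ-free mice had been kept without microbes until they were killed. Conventionalized mice had been germ-free and were then given the gut microflora of a conventionally raised mouse for 10 days. RNA of 3 mice per group was pooled, and 2 aliquots of 10 ng were amplified and hybridized to 1 Affymetrix array each, so the 2 arrays of a group are repeat amplifications of 1 pool. All p-values therefore measure the difference between 2 pools against amplification and array error, and not against the spread between mice.

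In the small intestine, carriers of the brush border (the apical face towards the gut lumen) take up the products of protein digestion, and carriers of the basolateral face pass amino acids on to the blood. Slc3 proteins are not carriers themselves but heavy chains that bring their Slc7 partners to the cell surface: Slc3a1 pairs with Slc7a9, and Slc3a2 pairs with Slc7a5, Slc7a6, Slc7a7, Slc7a8, Slc7a10 and Slc7a11. Slc15 carriers move di- and tripeptides with protons, and Slc6 carriers draw on sodium and, in many but not all members, chloride. Slc1 carriers move glutamate or small neutral amino acids, and Slc38 carriers move glutamine and its neighbours. Villus enterocytes are the main site of apical uptake, whereas Paneth cells are known chiefly for making and secreting antimicrobial protein.

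Conventionalized cells were set against germ-free cells to ask which carriers differ once microbes live in the gut. No carrier passed the test in either direction: limma called 0 of 43 at a Benjamini-Hochberg adjusted p under 0.05, beside 0.355% of the 12111 genes tested (0.107% higher and 0.248% lower in conventionalized cells). At an unadjusted p under 0.05 there were 3 of 43 (Slc15a1, Slc6a19 and Slc6a20a, all lower in conventionalized cells), beside 5.94% of all genes (3.91% lower and 2.02% higher), and 1 of 43 in the limma fit without a trend of the variance on signal. The lowest adjusted p of any carrier was 0.243, for Slc6a20a. In 26 of 43 carriers (60.5%) the log2 difference, conventionalized minus germ-free, lay below 0, beside 50.0% of all genes. With each array centred on its median in place of the authors' scaling, which shifts the median of all genes by -0.10, the count below 0 was 31 of 43 (72.1%), beside 57.8% of all genes. The median over the 43 carriers was -0.23 and that over all genes 0.00. With the 2 opposite-strand genes included, the median was -0.12, and without conventionalized replicate 1 the carriers' median came to -0.057.

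Both conventionalized arrays read below both germ-free arrays in 11 of 43 carriers (25.6%), beside 16.1% of all genes, and above them in 4 of 43 (9.30%), beside 15.9%. The 11 were Slc15a1, Slc6a3, Slc6a4, Slc6a7, Slc6a8, Slc6a19, Slc6a20a, Slc6a21, Slc7a8, Slc7a9 and Slc38a9. The 4 were Slc1a4, Slc7a10, Slc36a1 and Slc38a1. A log2 difference of -1 or lower was reached by 4 carriers (Slc6a20a, Slc6a19, Slc6a21 and Slc7a8), beside 6.29% of all genes, and of 1 or higher by Slc6a14 alone, beside 4.99%. The signal filter bears on 3 carriers here: Slc6a14 passed it only through its conventionalized mean, and Slc6a3 and Slc7a2 only through their germ-free means. Among the 40 carriers above it in both groups, both conventionalized arrays lay below both germ-free arrays in 10 and above them in 4, and none reached 1.

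**Figure D1:**
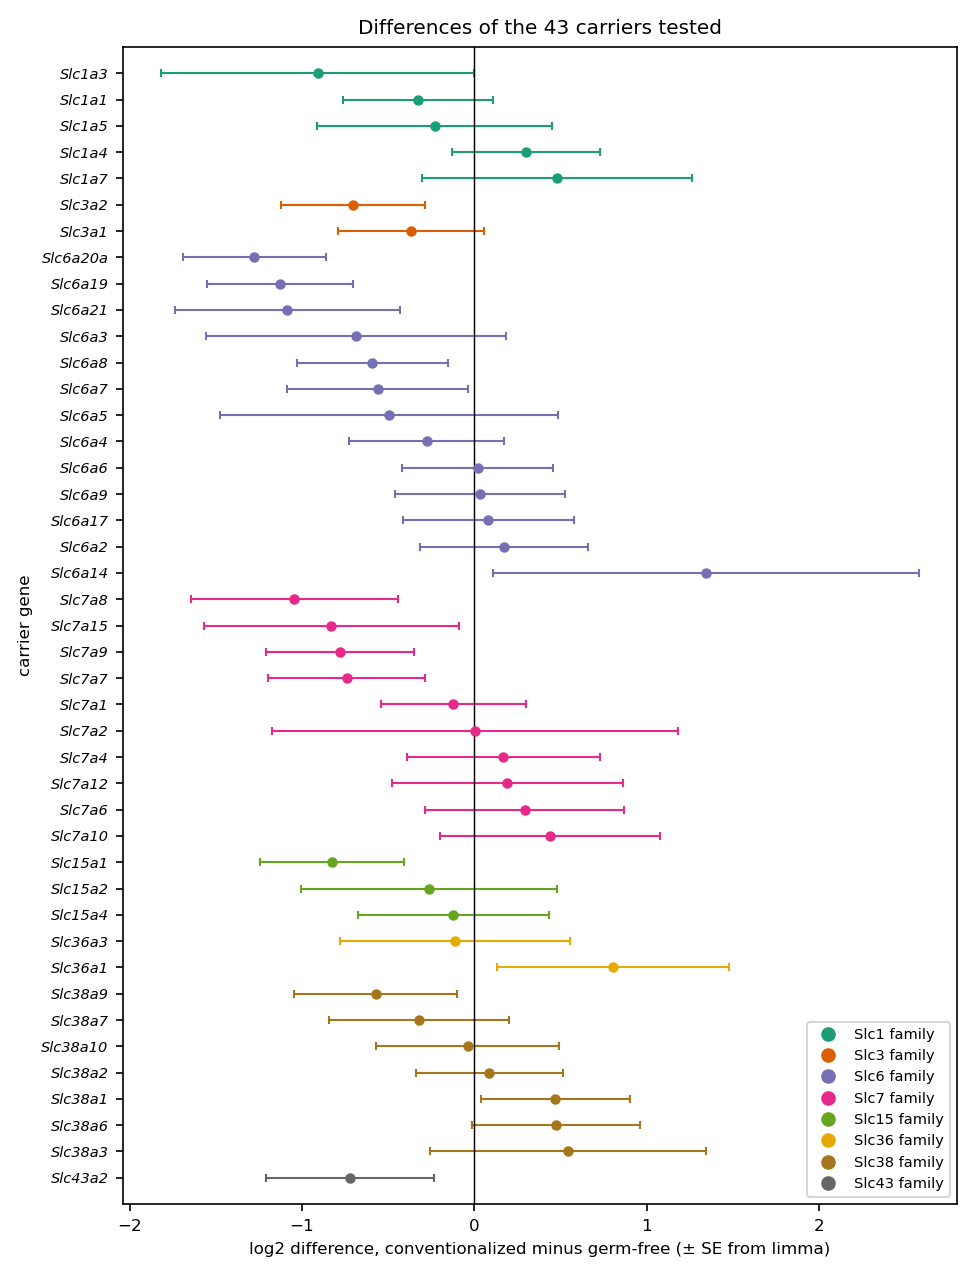
The log2 difference, conventionalized minus germ-free, of each of the 43 carriers tested (points, coloured by family) with the standard error from limma (bars; 2 arrays per group). Slc6a20a at -1.28 and Slc6a19 at -1.13 lie farthest below 0 and Slc6a14 at 1.34, which passed the signal filter only in conventionalized cells, farthest above it, and no carrier passed the test.

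The standard errors belong to probe sets of like signal, since limma's prior outweighed each probe set's own variance completely (infinite prior degrees). Over the carriers the median standard error was 0.52 on the log2 scale. Duplicate arrays of a pool differed by a median of 0.54 (germ-free) and 0.47 (conventionalized), close to the 0.51 and 0.57 of all genes. In 26 of 43 carriers the difference between the groups was smaller than its own standard error, and in 2 it was at least 2 standard errors. Duplicates lay more than 2-fold apart in 6 carriers in the germ-free and in 12 in the conventionalized group. A permutation of 2 arrays against 2 cannot go below p = 0.333, so no exact test over the arrays could pass. Fluidics station 1 served the germ-free pair and station 2 the conventionalized pair, which means that station and treatment cannot be told apart.

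Apical carriers read lower in conventionalized cells in most cases. Of the 9 listed, 8 were tested, 6 of these lay below 0, and the median log2 difference was -0.57, beside -0.12 for the 35 carriers outside the list. None passed the test. The apical median stayed below 0 with any 1 array left out, from -0.31 without germ-free replicate 2 to -0.87 without conventionalized replicate 2. A low median was not particular to this list: the 35 others include the 5 basolateral carriers tested, with a median of -0.72. In this captured tissue, fewer cells of a type and less RNA per cell cannot be told apart.

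Slc6a20a (gene identifier 102680), a sodium-driven carrier of proline and other imino acids, had germ-free signals of 2082 and 2103 and conventionalized signals of 664 and 1074. All signals are given in this order, replicate 1 before replicate 2. Both conventionalized arrays lay below both germ-free arrays, and the germ-free duplicates were almost equal. The log2 difference was -1.28 ± 0.42 (SE, n = 2 arrays each; adjusted p = 0.243 in limma), which is 2.42-fold lower on the log2(signal + 32) scale used throughout. Slc6a19 (gene identifier 74338), the main sodium-driven carrier of neutral amino acids in the brush border, read 2358 and 4070 against 1050 and 1859. Its log2 difference was -1.13 ± 0.42 (limma adjusted p = 0.484), 2.19-fold lower, and the groups did not overlap. A second probe set of Slc6a19 gave -0.99 ± 0.44, with 878 and 1092 against 316 and 709. Thus both probe sets of this gene were lower on both conventionalized arrays, and neither passed the test.

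Slc15a1 (gene identifier 56643), the peptide carrier of the brush border, read 1315 and 1615 against 576 and 1129. The groups did not overlap, and the log2 difference was -0.83 ± 0.42 (limma adjusted p = 0.968). The distance between the conventionalized duplicates was wide here: the difference was -0.36 without conventionalized replicate 1 and -1.29 without conventionalized replicate 2. Slc7a9 (gene identifier 30962), the light chain that exchanges cystine and cationic amino acids for neutral ones, read 2568 and 4075 against 1710 and 2044, a log2 difference of -0.78 ± 0.43. Its heavy chain Slc3a1 (gene identifier 20532) read 2063 and 2724 against 1317 and 2545. Here the groups overlapped, and the log2 difference of -0.37 ± 0.42 was smaller than its standard error.

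To set out the DNA in front of the genes whose groups did not overlap downwards on this list, and of Slc3a1 as the partner of Slc7a9, the 250 bases before the annotated transcript start are given 5′ to 3′, from RefSeq on build GRCm38.p6. Of the 43 carriers, 33 had an entry there. Capitals mark matches, on either strand, to 4 motifs of transcription factors of the intestinal epithelium: the HNF1 core (TTAAT and ATTA with 1 base of any kind between), the shorter HNF1 site GTTAAT, the HNF4 motif CAAAGTCCA and the CDX motif TTTATNG. The shorter site can overlap the core at a shared TTAAT.
Slc15a1, chr14:121505255-121505504, minus strand: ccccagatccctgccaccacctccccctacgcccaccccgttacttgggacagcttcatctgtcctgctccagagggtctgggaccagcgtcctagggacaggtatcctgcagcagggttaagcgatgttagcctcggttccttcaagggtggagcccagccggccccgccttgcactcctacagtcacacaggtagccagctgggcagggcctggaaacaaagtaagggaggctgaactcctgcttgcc
Slc6a19, chr13:73692637-73692886, minus strand: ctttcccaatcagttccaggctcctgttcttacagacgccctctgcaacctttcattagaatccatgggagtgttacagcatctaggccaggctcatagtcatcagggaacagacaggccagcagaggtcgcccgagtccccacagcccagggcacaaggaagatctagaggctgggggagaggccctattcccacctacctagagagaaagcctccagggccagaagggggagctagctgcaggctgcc
Slc6a20a, chr9:123678833-123679082, minus strand: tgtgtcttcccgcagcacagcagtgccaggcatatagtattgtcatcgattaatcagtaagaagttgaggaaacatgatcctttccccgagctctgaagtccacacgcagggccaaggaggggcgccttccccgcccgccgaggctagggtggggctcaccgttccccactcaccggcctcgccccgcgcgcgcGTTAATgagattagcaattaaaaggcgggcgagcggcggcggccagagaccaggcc
Slc7a9, the first of 2 starts, chr7:35448842-35449091, plus strand: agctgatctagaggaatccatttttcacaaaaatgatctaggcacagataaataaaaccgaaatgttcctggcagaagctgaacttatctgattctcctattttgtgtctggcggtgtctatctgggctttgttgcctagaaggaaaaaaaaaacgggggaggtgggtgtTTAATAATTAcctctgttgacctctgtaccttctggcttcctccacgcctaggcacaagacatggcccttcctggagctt
Slc3a1, chr17:85028097-85028346, plus strand: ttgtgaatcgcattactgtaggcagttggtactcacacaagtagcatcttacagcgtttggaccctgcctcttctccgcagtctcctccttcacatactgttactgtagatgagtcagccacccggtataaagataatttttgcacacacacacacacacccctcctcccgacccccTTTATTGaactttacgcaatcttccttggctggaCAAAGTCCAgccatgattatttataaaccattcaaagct

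The window of Slc7a9 held the HNF1 core, 80 to 71 bases before the start, which 0.387% of 32851 promoter windows held, and that of Slc6a20a held the shorter HNF1 site (6.43% of windows). The window of Slc3a1 held the HNF4 motif, 39 to 31 bases before the start (0.384% of windows), and the CDX motif (9.81%). The windows of Slc15a1 and Slc6a19 held none of these letters. Among the 33 carriers with an entry, the HNF1 core was also found before Slc7a8 and Slc7a15, the shorter site before Slc7a7, Slc7a15 and Slc36a1, and the CDX motif before Slc7a15. These matches describe the sequence and are not binding sites shown by these data.

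The other apical carriers gave mixed readings. Slc1a1, the glutamate and aspartate carrier of the brush border, read 625 and 995 against 650 and 597, a log2 difference of -0.33 ± 0.44. Its second probe set gave -1.57 ± 0.68, where conventionalized replicate 2 read 22.4 against 239 to 370 on the other arrays. Slc36a1, a proton-driven carrier of small amino acids found in the brush border and in lysosomes, read 98.9 and 165 against 203 and 303. Both conventionalized arrays lay above both germ-free arrays, with a log2 difference of 0.80 ± 0.68. Slc6a14, a carrier of neutral and cationic amino acids, read 119 and 6.8 against 101 and 253 and differed by 1.34 ± 1.24. Its germ-free duplicates were far apart, and it passed the signal filter only through its conventionalized mean of 177, the germ-free mean being 62.9. Its difference was 1.96 with a pseudocount of 8 and 0.69 with one 4 times the 32 used.

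Of the 6 basolateral carriers, 5 were tested, 4 lay below 0, and none passed the test (median -0.72). Slc7a8, a light chain that exchanges neutral amino acids, read 346 and 320 against 167 and 125. The groups did not overlap, and the log2 difference was -1.04 ± 0.60 (limma adjusted p = 0.999). In Slc3a2, Slc7a7 and Slc43a2 conventionalized replicate 1 alone was low. The heavy chain Slc3a2 read 1338 and 1646 against 564 and 1425, a log2 difference of -0.70 ± 0.42 that was -0.057 without that array. Slc7a7, the light chain that exports cationic amino acids, read 818 and 619 against 270 and 623 and differed by -0.74 ± 0.45, or -0.18 without it. Slc43a2, which lets large neutral amino acids out by facilitated diffusion, read 5873 and 7925 against 2803 and 6046 and differed by -0.72 ± 0.49, or -0.17 without it. The list median was likewise -0.17 without conventionalized replicate 1 and -1.27 without conventionalized replicate 2. Slc7a6 differed by 0.29 ± 0.58, and its groups overlapped.

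**Figure D2:**
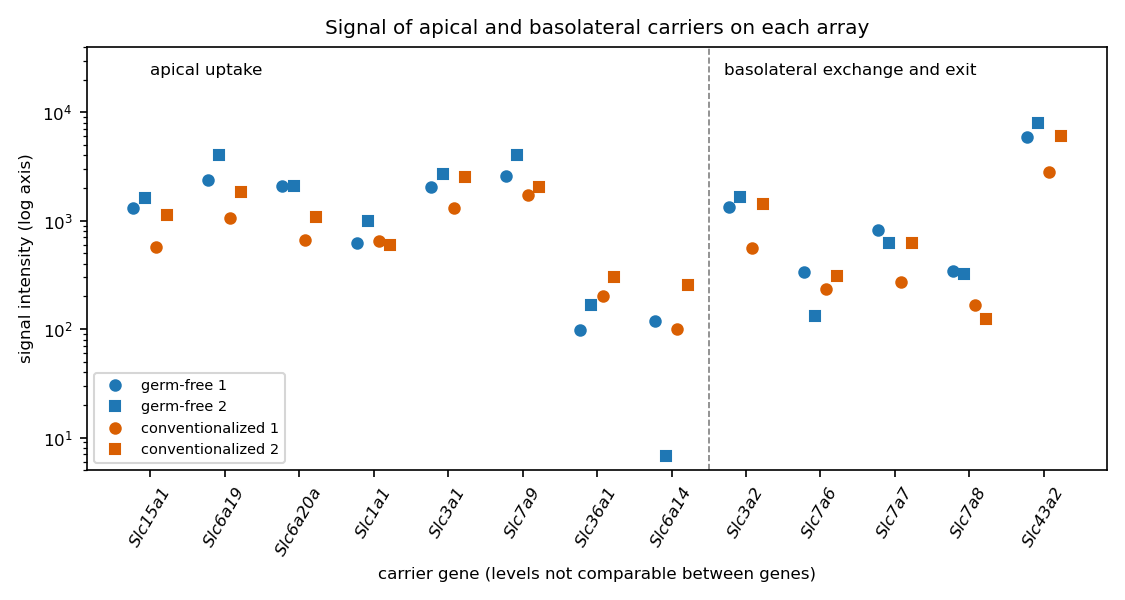
Signal intensity (log axis) of 8 apical and 5 basolateral carriers on each array, germ-free in blue and conventionalized in orange. In Slc15a1, Slc6a19, Slc6a20a, Slc7a9 and Slc7a8 both orange points lie below both blue ones, whereas in Slc3a2, Slc7a7 and Slc43a2 conventionalized replicate 1 alone is low.

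Carriers that feed most cell types had a median near 0, with values from -0.23 to 0.54. Of 11 listed, 7 were tested, 2 lay below 0, none passed the test, and the median was 0.09 (-0.02 with median centring, -0.15 without conventionalized replicate 1). Slc38a2, a glutamine and alanine carrier induced by amino acid shortage, read 1782 and 2802 against 2795 and 2014, a log2 difference of 0.09 ± 0.43. Slc7a1, the carrier of arginine and lysine, read 1975 and 2224 against 2307 and 1604 and differed by -0.12 ± 0.42. In both genes the groups overlapped. Slc1a4, a carrier of alanine, serine and cysteine, read 750 and 711 against 945 and 869. The groups did not overlap, yet the difference of 0.30 ± 0.43 was smaller than its standard error. A second probe set of Slc1a4, with 165 and 143 against 431 and 443, gave 1.34 ± 0.55, the same direction at a larger size. Slc38a1, another glutamine carrier, read 534 and 736 against 810 and 958 and differed by 0.47 ± 0.43, while its second probe set gave -0.25.

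Slc1a5, the glutamine exchanger, read 198 and 194 against 233 and 110 and differed by -0.23 ± 0.68. Slc38a3, a glutamine carrier, read 212 and 54.5 against 146 and 221 and differed by 0.54 ± 0.80, with -0.62 at its second probe set. Slc7a2, a cationic amino acid carrier, read 279 and 19.5 against 185 and 41.8, so that duplicates differed far more than the groups, whose log2 difference was 0.00 ± 1.18. Slc7a2 passed the signal filter through its germ-free mean of 149, its conventionalized mean of 113.6 lying just under 113.9. Carriers driven by Atf4, the transcription factor of the amino acid shortage response, were 8 in number with 6 tested, had 3 below 0 and a median of -0.043, and none passed the test. Single arrays moved it on both sides of 0, from -0.21 when germ-free replicate 1 was left out to 0.18 when conventionalized replicate 2 was, and median centring gave -0.15. The 6 tested are no separate set: Slc1a4, Slc1a5, Slc7a1 and Slc38a2 also stand among the carriers that feed most cell types. Slc3a2 is also listed as basolateral and Slc6a9 as a transmitter carrier.

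Lysosomal carriers had 4 of 6 tested, 3 below 0, a median of -0.22 and none that passed. Slc38a9, the arginine-sensing carrier of the lysosome that signals to the growth kinase complex mTORC1, read 659 and 472 against 370 and 360. The groups did not overlap, and its 4 tested probe sets ranged from -0.97 to -0.13, with -0.57 ± 0.47 at the brightest. Slc15a4, a histidine and peptide carrier of endolysosomes, read 478 and 152 against 239 and 261 and differed by -0.12 ± 0.56. Slc38a7, a glutamine exporter of lysosomes, differed by -0.32 ± 0.52. Germ-free replicate 1 was high for both, and the median of the lysosomal carriers moved from -0.22 to 0.38 when that array was left out, against -0.83 when the other germ-free array was.

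Uptake carriers of transmitters had 7 tested of 12 listed, 4 below 0, a median of -0.28 and none that passed. The median came close to 0 when single arrays were left out (-0.011 without germ-free replicate 1, -0.011 without conventionalized replicate 1 and -0.037 without conventionalized replicate 2) and was 0.035 in the brightest 25% of probe sets. Slc6a4, the serotonin carrier, which enterocytes also express, read 590 and 685 against 524 and 515, a log2 difference of -0.28 ± 0.45 without overlap. Slc6a3, the dopamine carrier, differed by -0.69 ± 0.87 without overlap, and passed the signal filter through its germ-free mean of 177, against 96.5 in conventionalized cells. The norepinephrine carrier Slc6a2 (0.17), the glycine carriers Slc6a5 (-0.50) and Slc6a9 (0.03) and the glutamate carriers Slc1a3 (-0.91) and Slc1a7 (0.48) had overlapping groups. A second probe set of Slc6a9, with 328 and 192 against 136 and 36.6, gave -1.40 ± 0.81 without overlap. Slc1a3 read 267 and 121 against 251 and 13.9, so its value rests on conventionalized replicate 2. Slc1a7 read 143 and 100.1 against 116 and 272. Markers of enteric neurons and glia were mostly dim, with 3 of 8 above the filter and a summed signal of 336 to 678 in germ-free and 601 to 862 in conventionalized cells. Their part in these values was not tested.

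Slc6a8, the creatine carrier, read 4105 and 3218 against 2136 and 2691. The groups did not overlap, the duplicates were close, and the log2 difference was -0.59 ± 0.44 (limma adjusted p = 0.999), with -0.17 at a second probe set. Slc6a6, the taurine carrier, differed by 0.02 ± 0.44. The probe sets of Slc1a3 and Slc15a2 carry a suffix that marks probes able to bind related transcripts, so their values are uncertain.

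The remaining 11 carriers were spread on both sides of 0. Slc38a10, a member of the glutamine carrier family, read 7965 and 7594 against 7280 and 7857, with a log2 difference of -0.04 ± 0.53. All 4 arrays were nearly level at that probe set, but its 6 other tested probe sets ran from -0.56 to 0.97. Slc38a6 read 408 and 271 against 385 and 584 and differed by 0.47 ± 0.49. Slc15a2, the peptide carrier best known from kidney, read 199 and 154 against 121 and 163 and differed by -0.26 ± 0.75. Slc36a3 read 233 and 156 against 105 and 279, and its difference of -0.11 ± 0.67 was small beside the gap between its conventionalized duplicates. Slc6a21 read 373 and 227 against 191 and 72.1. Its groups did not overlap, at -1.09 ± 0.65 (limma adjusted p = 0.999). The proline carrier Slc6a7 differed by -0.56 ± 0.53 and Slc7a15 by -0.83 ± 0.74, the latter with conventionalized readings of 22.7 and 341. Slc6a17 (0.08), Slc7a4 (0.17), Slc7a12 (0.19) and Slc7a10 (0.44) differed by less than their standard errors.

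Compared by family, Slc6 held 7 of the 11 carriers whose conventionalized arrays lay below the germ-free ones, that is 7 of its 13 tested members (53.8%, beside 16.1% of all genes), and it held none of the 4 that lay above (15.9% of all genes). Of the 7, Slc6a3 passed the signal filter only through its germ-free mean, and among the 11 Slc6 carriers above the filter in both groups the count was 6. Its 13 tested members had a median of -0.50, with 8 below 0 and values from -1.28 to 1.34. With 1 array left out, the Slc6 median ran from -0.41 to -0.29. The 2 heavy chains of Slc3 had a median of -0.53, which was 0.02 without conventionalized replicate 1. In Slc15, 3 of 3 members lay below 0 (median -0.26), in Slc1 3 of 5 (median -0.23) and in Slc7 5 of 10 (median -0.060). In Slc38, 3 of 7 lay below 0 (median 0.085) and in Slc36 1 of 2 (median 0.35). Slc43a2 stood alone in its family at -0.72, while its second tested probe set gave -0.079 ± 0.47 and the mean of both -0.40. The difference between families was not tested, since members of a family are not replicates of a condition. No family held a carrier that passed.

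**Figure D3:**
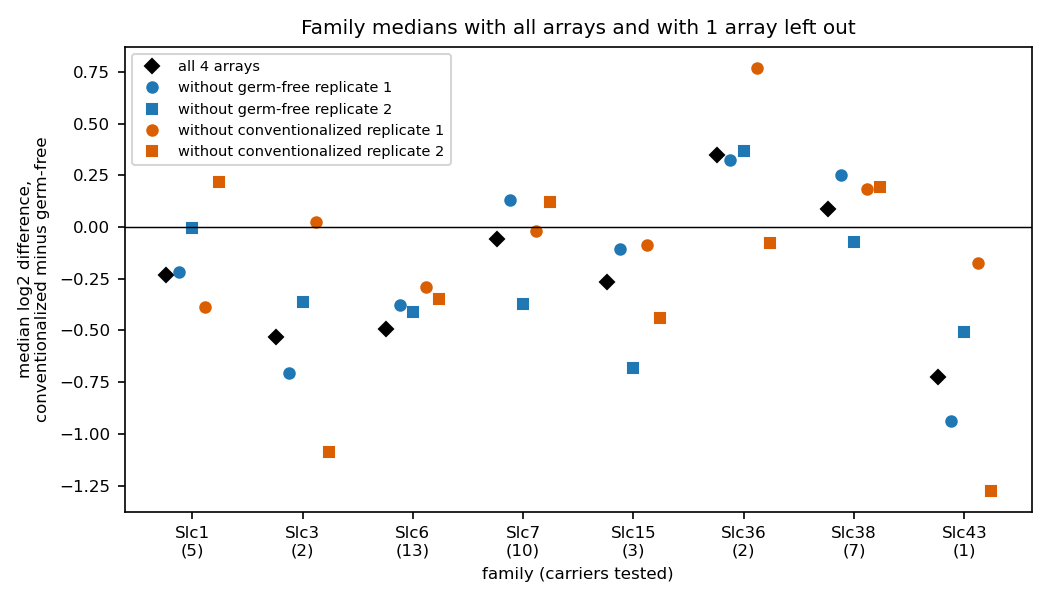
Median log2 difference, conventionalized minus germ-free, of the tested carriers of each family with all 4 arrays (black diamonds) and with 1 array left out (coloured points). The Slc6 and Slc15 medians lie below 0 in all 5 settings shown, as does the single value of Slc43, and the medians of Slc1, Slc3, Slc7, Slc36 and Slc38 lie on both sides of 0.

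Markers of absorptive enterocytes were read on the same arrays as the apical and basolateral carriers. Of 25 tested markers 21 lay below 0, with a median of -0.50 that was -0.089 without conventionalized replicate 1, and Apoc3, an apolipoprotein of fat absorption, and Ada, adenosine deaminase, fell (limma adjusted p = 0.0033 and 0.022). The 4 markers above 0 were Fabp2, the intestinal fatty acid binding protein (1.48 ± 1.03), Rbp2 (1.23 ± 0.76), Apoa4 (0.59 ± 0.81) and Mgam (0.10 ± 0.46). All 25 stood above the signal filter in the mean over the 4 arrays. Rbp2, with 68.3 and 112.9 against 143 and 426, passed it only through its conventionalized mean. The probe set of Apoa4 carries the suffix of probes able to bind related transcripts. Their summed signal was 142737 and 251633 against 142844 and 311692, with Fabp2 giving 142558 of the last. Relative to the mean of the 4 arrays, the median deviation was -0.07 and 0.47 on the germ-free arrays for these markers and 0.12 and 0.52 for the apical carriers. On the conventionalized arrays it was -0.63 and 0.14 for the markers and -0.58 and -0.05 for the carriers. Conventionalized replicate 1 thus read lowest for both lists and germ-free replicate 2 highest. The part of enterocyte RNA in the carriers' values was not tested.

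**Figure D4:**
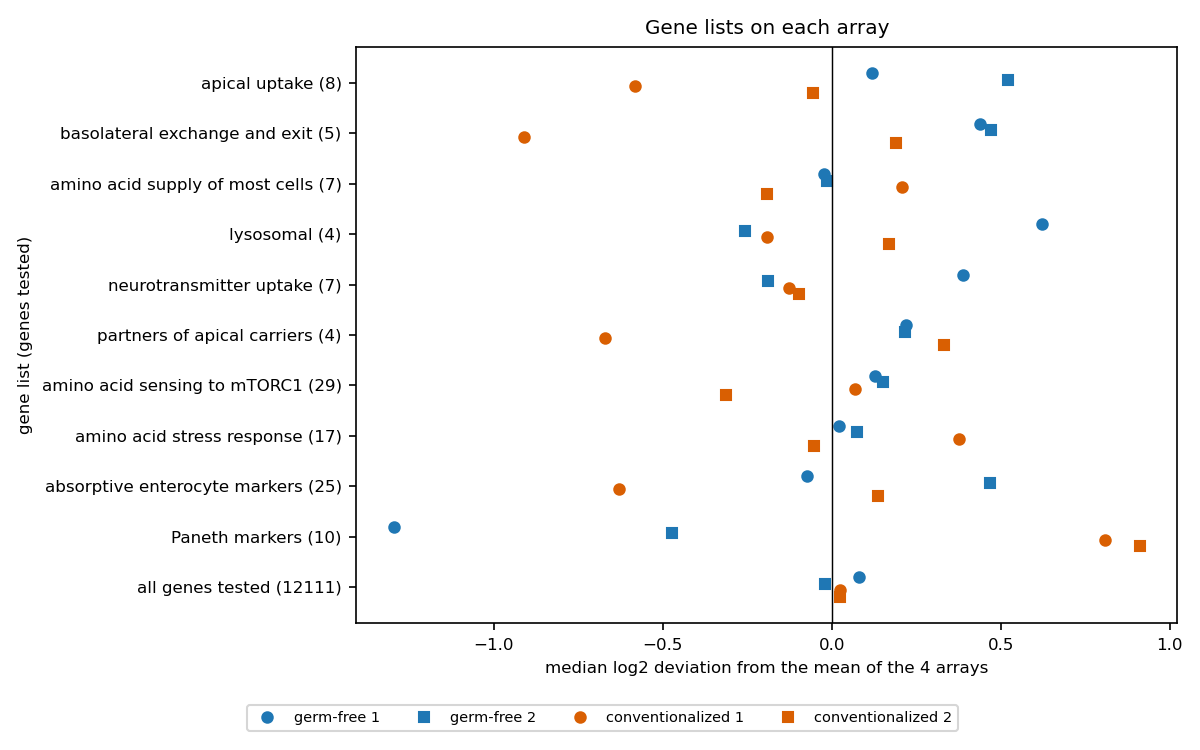
Median log2 deviation of each gene list from its genes' means over the 4 arrays, by array (germ-free in blue, conventionalized in orange); the number of genes tested is in brackets. Apical carriers, basolateral carriers, partners of apical carriers and enterocyte markers are lowest on conventionalized replicate 1, while Paneth markers are high on both conventionalized arrays.

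Markers of the labelled cell type were mostly bright. Of 11 Paneth markers measured, 10 were tested and all 10 read above 0 in the log2 difference (median 1.84), with Mptx1, a pentraxin, passing the test, and lysozyme Lyz1 read 24112 or more on each array. Habp2 and Pla2g2a were dimmer, with mean signals of 176 and 297, and Defa3, at 77.3, lay under the filter. The probe sets of Lyz1, Ang4, Defa31, Defa39 and Habp2 carry the suffix of probes able to bind related transcripts. The same arrays carried enterocyte, goblet and enteroendocrine markers. Retnlb, a goblet cell protein with antibacterial action, rose in conventionalized cells, by 3.53 ± 0.51 (limma adjusted p = 2.3e-08), and so did Igha, the constant region of immunoglobulin A heavy chain, by 2.44 ± 0.44 (limma adjusted p = 5.5e-05). Goblet markers did not all go this way: 8 of 10 lay above 0, while Clca1 (-1.29 ± 0.42) and Muc2 (-0.34 ± 0.49) lay below. Medians of further marker lists were 0.53 for 10 goblet, -0.43 for 11 enteroendocrine, 0.02 for 8 crypt base stem cell and -0.10 for 4 exocrine pancreas markers. They were 0.38 for 3 enteric neuron and glia, 0.93 for 5 immune, -0.24 for 9 fibroblast and muscle and -0.61 for 3 endothelium and blood markers. In this last list Cdh5 (-0.61) and Kdr (-1.81) passed the signal filter only through their germ-free means, so nothing is read from its median. Lgr5 (-0.86) of the stem cell list also passed only through its germ-free mean.

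Other genes of amino acid handling gave no called member at their brightest probe sets. Partners that apical carriers need at the brush border lay below 0 in 4 of 4 tested, with a median of -0.48 that was 0.16 without conventionalized replicate 1. The scaffold Slc9a3r1 read 10914 and 12854 against 5930 and 11604 and differed by -0.51 ± 0.57, and the scaffold Pdzk1 differed by -0.45 ± 0.42. Amino acid carriers of other families had 11 tested and 5 below 0, with a median of 0.08. Among them the mitochondrial ornithine carrier Slc25a15 differed by -0.36 ± 0.51, and the aromatic amino acid exporter Slc16a10 by -0.39 ± 0.42. The list of amino acid sensing to mTORC1 holds parts of the complex itself and both activators and inhibitors of it. Its genes lay below 0 in 20 of 29, with a median of -0.27 that was -0.056 without conventionalized replicate 2. In 11 of these 29 (37.9%, beside 16.1% of all genes) both conventionalized arrays read below both germ-free arrays, and in 4 (13.8%, beside 15.9%) above them. Among those below, Lamtor4, Wdr24 and Nprl3 passed the signal filter only through their germ-free means. Rraga, among those above, passed it only through its conventionalized mean. The 2 genes of this list with the largest signal, Lamtor5 (-0.01) and Lamtor1 (-0.27), differed by less than their standard errors. Named after their values were seen, the members at -1 or lower were Lamtor4 (-1.63 ± 1.19), Wdr24 (-1.43 ± 0.63), Sesn1 (-1.30 ± 0.42) and Flcn (-1.13 ± 0.44). Those at 1 or higher were Rraga (1.44 ± 0.82) and Rptor (1.01 ± 0.54). Lamtor4, Wdr24 and Rraga are among the genes that the filter kept only through the group where they read higher. The response to amino acid shortage had 8 of 17 below 0 and a median of 0.0048, which was 0.55 without conventionalized replicate 2 and -0.14 without conventionalized replicate 1, with its transcription factor Atf4 at 0.34 ± 0.54 and the proline synthesis enzyme Aldh18a1 at -0.98 ± 0.44. Also named after their values were seen, Ddit3 (-1.27) and Atf5 (-1.06) lay at -1 or lower, and Asns (1.21) and Nupr1 (1.21) at 1 or higher. None of them passed the test. The probe sets of Atf4, Aldh18a1, Asns, Flcn and Sesn1 carry the suffix of probes able to bind related transcripts, so their values are uncertain.

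The 22 carriers under the filter had mean signals from 21.8 to 109.5. Slc43a1, at 109.5, lay just outside the filter, with 240 and 56.5 against 131 and 9.8. Slc6a14, at 119.8, lay just inside. The untested carriers included Slc7a5 (38.6 and 26.5 against 23.1 and 29.5), the light chain of the large neutral amino acid exchanger, and Slc7a11 (28.1 and 17.2 against 100.3 and 32.5), that of the cystine and glutamate exchanger. Slc6a20b read 12.9 and 6.9 against 7.4 and 201, and Slc38a4 read 30.5 and 3.5 against 3.5 and 263, so that a single array carried each signal. Values of this size are not ordered by these arrays, and nothing is read from them. The opposite-strand genes Slc7a6os and Slc6a19os differed by 0.41 ± 0.60 and 0.42 ± 1.06.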

How the data were processed

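Signal intensities were deposited as 1 value per probe set and array of an Affymetrix Mouse430_2 array (per the file headers), on a linear scale and already scaled by the authors, with a trimmed mean of 250 on all 4 arrays; the software behind them is not given in the sources used here. Symbols came from the platform annotation. Of 45101 probe sets, 64 controls were left out and 22491 with a mean above 113.9, the median of all, were tested. Values were taken as log2(intensity + 32), which understates changes of dim probe sets, and tested by limma (version 3.58.1, under R 4.3.3), using lmFit and eBayes with a variance trend and Benjamini-Hochberg adjustment over all probe sets tested. Tested on simulated data, the share of false calls came out above the nominal one, mostly among dim probe sets, so single calls are less certain than their adjusted p. Number of arrays limits the precision.

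Members, role lists and marker lists were chosen with earlier results of these data known. All kept carriers are named; those called, brightest in their family, most different or textbook carriers of intestine have full values, and in other lists the called genes or the 2 with the largest signal. Genes outside this rule were chosen after their values were seen. The lists overlap: Slc36a1 is both apical and lysosomal, and every Atf4-driven carrier tested stands in another role list. Anpep, Sesn2 and Nupr1 also stand in more than 1 list. Alternatives were pseudocounts of 8 and of 4 times 32, a signal filter that was dropped or kept only the brightest 25%, median centring or quantile normalization, no trend, a replicate block, gene means over probe sets and each array left out.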

Additional observations from a re-analysis of the deposited data

How the results depend on the processing

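The count of carriers called was 0 in either direction under the alternative pseudocounts, filters, scalings and variance model, the gene means over probe sets and each array left out, with a lowest adjusted p from 0.125 to 1.0. With the aliquot number as a replicate block it was also 0, with a lowest adjusted p of 1.0 and 30 probe sets called among all (75 in the fit without the block); same-numbered arrays share only a number, and their deviations from the group means correlated at -0.132. With the numbers crossed, chosen after seeing the data, 1 carrier was called lower and 228 probe sets in all. Over all probe sets, the calls numbered 33 with quantile normalization, 22 with median centring, 0 without the variance trend, 46 without germ-free replicate 1, 41 without germ-free replicate 2, 213 without conventionalized replicate 1 and 47 without conventionalized replicate 2. With 1 array left out, the median over carriers ran from -0.30 to -0.057, that of Slc1 from -0.38 to 0.22, of Slc6 from -0.41 to -0.29, of Slc7 from -0.37 to 0.13 and of Slc15 from -0.68 to -0.085. In the brightest 25% of probe sets (26 carriers left, none of Slc36) the medians were -0.013 for Slc1, -0.28 for Slc6 and -0.43 for Slc7, and with a pseudocount 4 times larger that of Slc6 was -0.24. Of the 43 carriers, 16 lay below 0 and 6 above 0 under every setting run; 21 changed sign with 1 array left out and 9 of them also under another setting. Left-out arrays gave -0.86 to 0.61 for Slc15a4, -2.22 to 0.40 for Slc1a3, -0.68 to 0.22 for Slc1a5, -0.037 to 1.00 for Slc1a7, -0.70 to 0.48 for Slc36a3, -0.095 to 0.015 for Slc38a10, -0.24 to 0.41 for Slc38a2, -0.20 to 1.29 for Slc38a3, -0.89 to 0.25 for Slc38a7, -0.83 to 0.10 for Slc3a1, -0.41 to 0.57 for Slc6a17, -0.30 to 0.64 for Slc6a2, -1.61 to 0.62 for Slc6a5, -0.25 to 0.29 for Slc6a6, -0.14 to 0.21 for Slc6a9, -0.38 to 0.14 for Slc7a1, -0.27 to 0.66 for Slc7a12, -2.22 to 0.55 for Slc7a15, -1.29 to 1.30 for Slc7a2, -0.13 to 0.47 for Slc7a4 and -0.29 to 0.88 for Slc7a6. Median centring gave -0.019 for Slc38a2, -0.024 for Slc6a17, -0.085 for Slc6a6, -0.070 for Slc6a9 and -0.10 for Slc7a2, and a pseudocount 4 times larger gave -0.086 for Slc7a2. The mean of all tested probe sets of a gene gave 0.19 for Slc38a10, -0.036 for Slc38a3, -0.047 for Slc6a17, -0.12 for Slc6a2, -0.68 for Slc6a9 and 0.18 for Slc7a1. The cause of these changes was not tested. Among 16 carriers with more than 1 tested probe set, 13 of 25 further probe sets had the sign of the brightest one.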
